A study of Mus musculus with 22 samples.

Results

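The Hox genes and Evx2 had 34 regions with a difference in H3K4me3, a histone mark of active promoters, among the 26201 regions listed in 4 comparisons of mouse synovial fibroblasts. Members were all regions whose assigned gene name is Hoxa, Hoxb, Hoxc or Hoxd with a number, or Evx2, at any position relative to the gene. They lay on 15 of the 40 such genes in RefSeq. Of the 34 regions, 9 came from Tg197 against wild-type (WT) cells at 3 weeks of age, 6 from the same comparison at 8 weeks, 8 from that at 11 weeks, and 11 from WT cells of 8 weeks with TNF against the same cells without it. All 34 were lower in the Tg197 or the TNF-treated cells as the authors scaled the libraries. So were 89.5%, 77.2%, 67.0% and 72.3% of all listed regions in these 4 comparisons, in the same order. With libraries scaled to their median over all listed regions, 17 of the 34 Hox regions turned positive, as did 25.6% of all regions with negative changes. That scaling shifts all regions of a table alike.

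Synovial fibroblasts, which line the joint cavity, came from CBA x C57BL/6J mice and were in culture at passage 4 or 5. Arthritis develops in Tg197 mice, which express human TNF from a transgene that WT mice lack. There were 3 libraries in each of 7 groups, which were Tg197 and WT at 3, 8 and 11 weeks and WT at 8 weeks with TNF, plus 1 input library made from mixed genotypes. The joint of origin, the TNF dose and the length of treatment are not given in the sources used here. Nor is it known whether libraries of 1 group stem from different mice, so p-values cover the spread between libraries, which may be technical. The cells were profiled in bulk, so fewer cells with the mark and less of the mark per cell cannot be told apart.

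Hox genes encode homeodomain transcription factors that give cells a position along the body and along the limb. In mammals they lie in 4 clusters, Hoxa to Hoxd, all genes of a cluster run in the same direction, and genes at matching places in different clusters form paralogue groups numbered from 1 to 13. Low-numbered genes act towards the head and high-numbered ones towards the tail and the tips of the limbs. In the embryo, trithorax-group enzymes deposit H3K4me3 over active Hox genes, and Polycomb proteins keep the others silent with a different histone mark. Fibroblasts of adult skin and joints keep a Hox pattern that reflects the place they came from. Evx2 is a homeobox gene beside Hoxd13 that shares the distant limb enhancers of the Hoxd cluster.

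The tables list only regions whose best window reached a p of 0.0001 or less in the authors' own comparison, so a Hox gene without a region has no value here, and its H3K4me3 is unknown. Each region carries 1 value per library, the authors' normalized number of reads, and a, b and c name the libraries of a group in the order of the table. A region is called lower where the authors' adjusted p is under 0.05, and it is said to have fallen where limma, run on log2(normalized reads + 0.5) over all listed regions of a table, gave a Benjamini-Hochberg adjusted p under 0.05. Both readings use the libraries that selected the regions and neither is independent evidence of a difference. Log2 changes below are limma's, with their SE and 3 libraries a group. Reads in listed regions came to between 321448 and 2780941 per library, and the Hox regions held 31 to 530 reads each per library.

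One WT library stood apart in both tables of 8 weeks, which share the untreated WT libraries. WT library c was the lowest of the 3 WT libraries in 5 of the 6 Hox regions of the Tg197 table and in 8 of the 11 of the TNF table. Its value lay below the highest treated library in 1 and in 6 of them. Over all lower regions this was so for WT library c in 40.8% and 28.5% of regions, against between 0.261% and 1.59% for WT libraries a and b. Results of the named Hox regions at 8 weeks are therefore given with and without it. Of 12 synovial fibroblast markers, 9, 4, 4 and 3 had a listed region at 3, 8 and 11 weeks and with TNF, and a marker that is not listed has no value. Their directions were mixed, with 7, 1, 2 and 2 genes having a lower region and 5, 3, 3 and 1 a higher one. At 8 weeks their summed reads were 749.7 to 886.5 in Tg197 and 563.8 to 663.0 in WT libraries, and the sums overlapped in the other tables. Leukocyte markers had 1, 2, 1 and 0 of 9, all lower, with sums of 145.5 to 241.6 in Tg197 and 343.1 to 409.1 in WT libraries at 3 weeks, 120.2 to 198.8 against 180.8 to 407.9 at 8 weeks and 57.4 to 73.7 against 91.6 to 128.0 at 11 weeks. Endothelial markers had 3, 0, 2 and 1 of 6, with sums of 713.1 to 954.6 against 1071 to 1328 at 3 weeks, 364.2 to 486.1 against 407.3 to 453.6 at 11 weeks and 34.9 to 79.6 against 90.9 to 215.2 with TNF. The muscle list had only Ckm, lower at 3 and 8 weeks, with 66.7 to 91.0 against 105.0 to 156.5 and 40.6 to 75.2 against 75.3 to 158.7. Nerve sheath and epithelial markers had 2 of 5 at 3 weeks, with sums of 349.6 to 497.0 against 667.9 to 745.5, and Sox10 alone at 11 weeks, higher at 107.2 to 201.3 against 86.3 to 100.4. Cartilage, bone and fat markers had 3, 3, 4 and 3 of 8, all lower, and their summed reads at 3 weeks were 681.8 to 851.4 in Tg197 and 1084 to 1310 in WT libraries. At 11 weeks these sums were 474.7 to 638.2 against 905.3 to 916.7, and with TNF they were 532.5 to 777.8 against 1034 to 1313. At 8 weeks they were 431.5 to 491.0 in Tg197 and 699.1 to 736.8 in WT libraries. These sums hold only listed regions, which were chosen for a difference between these same libraries, so separate sums were largely set by that choice. Of all listed regions, 89.5%, 77.2%, 67.0% and 72.3% were lower at 3, 8 and 11 weeks and with TNF. Whether cells of these types differed in number was not tested, nor was their part in the Hox values.

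At 3 weeks, 9 of 9 Hox regions were lower and all 9 fell, in a table where 89.5% of all listed regions were lower and 88.9% fell, while 9.71% were higher and 4.68% rose. Without WT library c limma called 0 regions of the whole table and the Hox regions had adjusted p of 0.0646 to 0.109. Without WT library b 4 of the 9 fell (57.5% of the table), without WT library a 6 (58.9%), and without Tg197 library a 6 (78.0%). At 8 weeks, 6 of 6 were lower (77.2% of the table) and limma called none (0.0% of the table), with 0 also called by voom on the recovered reads. At an unadjusted limma p under 0.05, 5 of 6 were lower, as were 54.4% of the table. Higher regions made up 20.2% of that table. Without WT library c, 6 of 6 fell, as did 76.5% of the table. At 11 weeks, 8 of 8 were lower and 7 fell, against 67.0% and 67.7% of the table, in which 29.8% were higher and 29.6% rose. With TNF, 11 of 11 were lower and 3 fell, against 72.3% and 42.6% of the table, in which 24.6% were higher and 16.5% rose. Without WT library c, 9 of the 11 fell, as did 68.4% of the table, and without treated library a 5 fell, as did 45.9%. Without any other single library limma called 0 regions of the whole table. Every treated library was below every WT library in 9 of 9, 5 of 6, 8 of 8 and 4 of 11 Hox regions, and in 86.4%, 46.3%, 67.1% and 51.8% of all listed regions, which were chosen on these same libraries. Lower regions were thus the rule in all 4 tables, and the direction of the Hox regions has to be read against that.

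Near start sites the background was more even. The authors' annotation gives 3 promoter classes that reach 250 bp, 1 kb and 3 kb from a transcription start site (TSS), and 24 of the 34 Hox regions were in them, the other 10 being in the gene body class. Among all listed regions within 3 kb of a TSS, 58.8%, 51.9%, 47.3% and 57.1% were lower at 3, 8 and 11 weeks and with TNF, and 39.7%, 44.4%, 46.6% and 38.9% were higher. The Hox regions of those classes were lower in 5 of 5, 6 of 6, 5 of 5 and 8 of 8 cases. Their median log2 change was -0.58, -0.64, -0.50 and -0.47, beside -0.54, -0.47, 0.09 and -0.41 for all listed regions within 3 kb. Over every class the Hox medians were -0.71, -0.64, -0.50 and -0.51, beside -0.70, -0.86, -0.60 and -0.58 for the whole tables. Neighbouring regions of 1 cluster share their chromatin, so these counts are not counts of independent events.

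**Figure D1:**
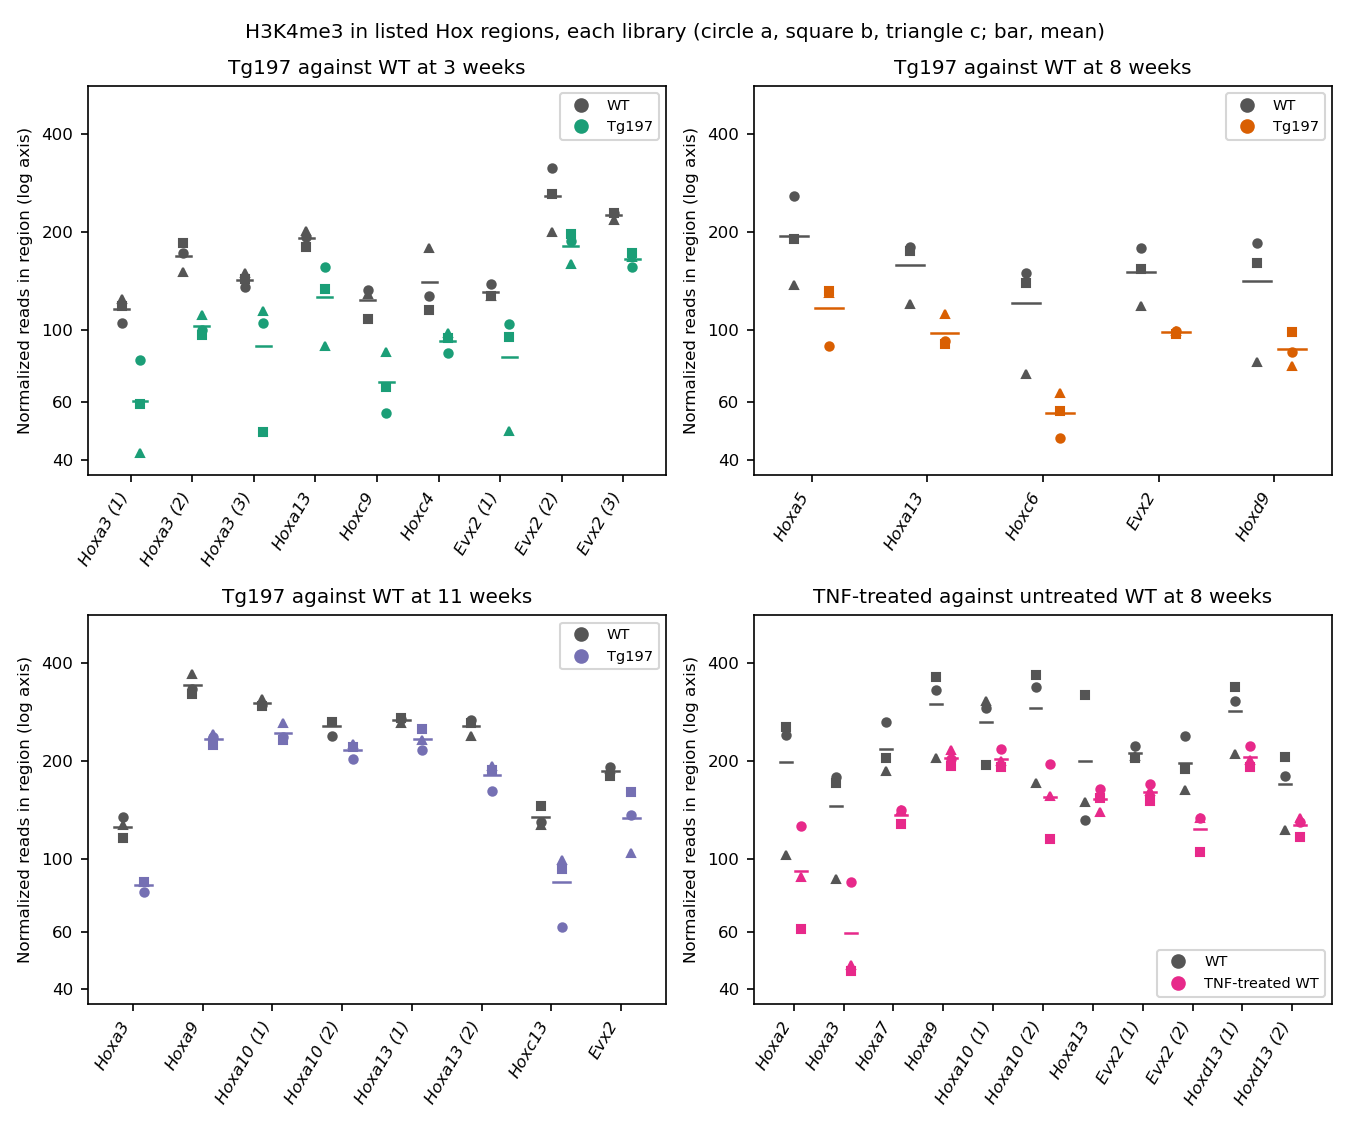
Normalized reads in 33 of the 34 listed Hox regions (vertical log axis), in 4 panels, one per comparison; each symbol is 1 library (circle a, square b, triangle c), grey for WT and coloured for Tg197 or TNF-treated cells, and bars are group means. With the authors' scaling no WT library is as low as a Tg197 library of the same region at 3 and 11 weeks, while at 8 weeks the WT triangles often sit near or among the treated libraries.

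The cluster with the most listed genes was Hoxa, with 8 of 11 genes and 20 regions. Hoxc had 4 of 9 genes and 4 regions, and the Hoxd cluster with Evx2 had 3 of 10 genes and 10 regions. None of the 10 Hoxb genes had a listed region. The median log2 change was -0.61 in Hoxa, -0.76 in Hoxc and -0.50 in Hoxd with Evx2. By paralogue group, number 13 had 8 regions, on Hoxa13, Hoxc13 and Hoxd13. Group 3 had 5 regions, all on Hoxa3, group 9 had 4, on Hoxa9, Hoxc9 and Hoxd9, and group 10 had 4, all on Hoxa10. Groups 2, 4, 5, 6 and 7 had 1 region each, and groups 8, 11 and 12 had none.

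Only 7 of the 34 regions held the annotated start site of the transcript they were assigned to, namely those of Hoxc4, Hoxc6, Hoxa5, Hoxc13, Hoxa7, Hoxa9 and the shorter Hoxa10 transcript. Of all 34, 24 were centred downstream of the start site and 10 upstream, and each was 1000 to 1500 bases long. Promoter sequences of RefSeq on GRCm38.p6, running from 250 bases before to 50 after the start site, were matched by symbol for 11 of the 15 listed genes. The sequences below are those of 4 genes whose start site lay in a listed region, shown because these regions were lower in the authors' deposited tables; those of Hoxa5 and Hoxa10 did not pass limma in the table that assigns them to these transcripts. Capitals mark CpG dinucleotides, whose density is known to go with H3K4me3 at promoters. The files use mm9, and their coordinates are not those of the sequences.
Hoxc4 (chr15:103034145-103034444, plus strand): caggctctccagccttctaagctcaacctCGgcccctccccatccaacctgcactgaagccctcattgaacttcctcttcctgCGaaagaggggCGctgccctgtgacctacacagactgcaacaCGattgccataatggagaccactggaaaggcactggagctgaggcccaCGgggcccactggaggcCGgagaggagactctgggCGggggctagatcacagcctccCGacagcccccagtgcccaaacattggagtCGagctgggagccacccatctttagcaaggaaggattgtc
Hoxa5 (chr6:52204538-52204837, minus strand): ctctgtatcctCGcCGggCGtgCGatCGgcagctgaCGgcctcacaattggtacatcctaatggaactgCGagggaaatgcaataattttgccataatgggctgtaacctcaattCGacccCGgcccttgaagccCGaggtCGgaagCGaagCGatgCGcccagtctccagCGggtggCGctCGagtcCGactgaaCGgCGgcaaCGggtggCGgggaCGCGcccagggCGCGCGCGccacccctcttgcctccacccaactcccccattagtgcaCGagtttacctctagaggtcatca
Hoxa7 (chr6:52218524-52218823, minus strand): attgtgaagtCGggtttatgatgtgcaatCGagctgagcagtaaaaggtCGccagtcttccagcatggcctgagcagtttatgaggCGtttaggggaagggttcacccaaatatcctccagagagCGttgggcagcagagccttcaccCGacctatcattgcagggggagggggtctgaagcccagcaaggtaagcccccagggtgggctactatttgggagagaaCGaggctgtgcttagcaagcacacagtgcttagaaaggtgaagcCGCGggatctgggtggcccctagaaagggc
Hoxa10, shorter transcript (chr6:52234890-52235189, minus strand): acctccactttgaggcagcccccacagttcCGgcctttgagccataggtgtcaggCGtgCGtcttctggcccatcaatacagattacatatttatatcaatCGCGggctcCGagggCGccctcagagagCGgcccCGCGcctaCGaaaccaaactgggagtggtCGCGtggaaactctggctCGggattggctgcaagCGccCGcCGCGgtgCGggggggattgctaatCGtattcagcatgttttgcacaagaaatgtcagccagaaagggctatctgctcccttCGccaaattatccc

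These promoters held 9, 29, 9 and 21 CpG in 300 bases, beside a median of 7 in 32851 mouse promoters of that length. The promoter found for Hoxa9, whose start site also lay in a listed region and which is not printed, held 4. The 25 promoters found for 23 Hox genes had a median of 15 CpG and ranged from 4 to 45. The highest was Hoxa13, a number that 1.93% of all promoters reach. Listed Hox genes had a median of 18 over 12 promoters, with a range of 4 to 45, and the other Hox genes had 14 over 13 promoters, with a range of 4 to 29, so the ranges overlapped. The letters TATAAA, on either strand, occurred in 5 of the 25 Hox promoters and in 13.6% of all promoters. The Hox-Pbx motif TGATTNAT, where N is any base, occurred on either strand in 2 of the 25 and in 3.22% of all.

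Towards the head end of the Hoxa cluster, Hoxa2, a regulator of the pharyngeal arches, had 1 region with TNF, downstream of its start site (chr6:52112501-52113800 on mm9). It held 127, 61.0 and 88.0 normalized reads in TNF-treated and 240.3, 254 and 103 in untreated WT cells. WT library c lay among the treated libraries while WT libraries a and b were far above them. The means differed 2.17-fold (log2 change -1.06 ± 0.42, limma adjusted p = 0.0504), and without WT library c the change was -1.48 with a limma adjusted p of 0.014.

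Hoxa3, needed for the thymus and parathyroid, had 5 regions in 3 tables, all in the gene body class. Its annotated transcript spans 44004 bases of mm9 and contains the whole Hoxa5 transcript, so these regions are assigned to Hoxa3 by overlap while lying far from its start site. The regions of 3 weeks lay 152, 2152 and 5352 bases from the Hoxa5 transcript, the TNF region lay 4152 bases and the region of 11 weeks 24852 bases from it. At 3 weeks, the region with the largest change of the Hoxa cluster (chr6:52145401-52146400) held 81.1, 59.1 and 42.1 normalized reads in Tg197 and 105, 118 and 124 in WT cells. The groups did not overlap, and the region fell 1.91-fold (log2 change -0.97 ± 0.29, limma adjusted p = 0.0145). Without WT library b its limma adjusted p was 0.0519. The other regions of 3 weeks fell by 0.71 and 0.77 on the log2 scale. The latter change was -0.38 without Tg197 library b, and its limma adjusted p was 0.0543 without WT library b. With TNF, a region between those of 3 weeks (chr6:52146601-52147600) held 85.0, 45.4 and 47.3 normalized reads in TNF-treated and 178, 171 and 86.8 in untreated WT cells. Treated library a was almost level with WT library c, and the other treated libraries were lower. This 2.45-fold difference of the means was the largest of all 34 regions but did not pass the test (log2 change -1.28 ± 0.49, limma adjusted p = 0.0501); without WT library c the limma adjusted p was 0.0166. At 11 weeks the Hoxa3 region fell by 0.59 ± 0.15 on the log2 scale (limma adjusted p = 0.0045).

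Hoxa5, which acts in the lung and shoulder girdle, had 1 region at 8 weeks that held its start site, whose 29-CpG promoter is printed above (chr6:52153401-52154800). It held 89.2, 132 and 129.9 normalized reads in Tg197 and 257, 190.1 and 137 in WT cells. WT library c was only just above the highest Tg197 library. The means differed 1.66-fold (log2 change -0.71 ± 0.30, limma adjusted p = 0.0741), and without WT library c the change was -0.94 with a limma adjusted p of 0.00555. Hoxa7, a gene of the trunk, had 1 region with TNF that also held its start site (chr6:52167401-52168600). It held 141, 129 and 141 normalized reads in TNF-treated and 264, 204 and 187 in untreated WT cells. The treated libraries were close together and all below the WT libraries. Hoxa7 fell 1.59-fold (log2 change -0.66 ± 0.19, limma adjusted p = 0.046), and the limma adjusted p was 0.135, 0.129, 0.134 and 0.114 when treated library b, treated library c, WT library a or WT library b was left out. Leaving out WT library c gave a change of -0.76 with a limma adjusted p of 0.014.

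Hoxa9, a gene of the trunk and limb that is also active in blood stem cells, had 2 regions. At 11 weeks the region (chr6:52173001-52174100) lay almost wholly past the end of the transcript, which is at 52174052. It held 237, 223 and 243 normalized reads in Tg197 and 332, 322 and 371 in WT cells. Both groups were tight and far apart, and the region fell 1.46-fold (log2 change -0.54 ± 0.10, limma adjusted p = 0.00434). With TNF, the region held the start site (chr6:52176101-52177400), with 203, 193 and 217 normalized reads in TNF-treated and 329, 362 and 204 in untreated WT cells. WT library c lay between the treated libraries, and the change did not pass the test (log2 change -0.51 ± 0.21, limma adjusted p = 0.0569); without it the change was -0.76 with a limma adjusted p of 0.014.

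Hoxa10, required in the uterus and the upper limb segments, had 4 regions. A place at chr6:52184401-52185500 was listed both at 11 weeks and, 100 bases shorter, with TNF, and it holds the start site of the shorter Hoxa10 transcript, whose promoter is printed above. The authors' annotation calls it gene body in the first table, from the longer transcript, and promoter in the second. At 11 weeks it held 238, 233 and 261 normalized reads in Tg197 and 298, 296 and 310.1 in WT cells. It fell 1.24-fold (log2 change -0.31 ± 0.09, limma adjusted p = 0.00763), with no overlap of the groups. With TNF it held 217, 191 and 200.3 normalized reads in TNF-treated and 292, 195 and 305 in untreated WT cells. Here WT library b was the low one, between the treated libraries, and the change did not pass the test (log2 change -0.35 ± 0.19, limma adjusted p = 0.104). Leaving out WT library c gave a change of -0.23 with a limma adjusted p of 0.257.

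A second Hoxa10 region of 11 weeks (chr6:52187501-52188500) held 202, 221 and 226 normalized reads in Tg197 and 238, 263 and 264 in WT cells. It fell 1.18-fold (log2 change -0.24 ± 0.10, limma adjusted p = 0.037), and it no longer passed without Tg197 library a, WT library b or WT library c, with limma adjusted p of 0.111, 0.103 and 0.111. In the authors' deposited table, both Hoxa10 regions of 11 weeks had the smallest adjusted p of that table, 1.63e-08, which 296 regions share, although their changes were among the smallest of the Hox regions. With TNF, a region between the start sites of the 2 transcripts (chr6:52185801-52187300) held 195, 116 and 156 normalized reads in TNF-treated and 336, 368 and 171 in untreated WT cells. WT library c lay among the treated libraries. The region fell 1.88-fold (log2 change -0.86 ± 0.31, limma adjusted p = 0.0464), and without WT library c the change was -1.21 with a limma adjusted p of 0.014. It did not pass when any of WT libraries a and b and treated libraries b and c was left out, with limma adjusted p of 0.129 to 0.139.

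Hoxa13, which shapes the hand, foot and urogenital tract, was listed in all 4 tables, with 5 regions. Upstream of its start site it had a region in each of 3 tables. The regions of 8 and 11 weeks each overlap that of 3 weeks but share no base with each other. At 3 weeks the region (chr6:52212101-52213200) held 156, 134 and 89.6 normalized reads in Tg197 and 193, 179.9 and 201 in WT cells. No libraries overlapped, and it fell 1.51-fold (log2 change -0.63 ± 0.21, limma adjusted p = 0.0167), with a change of -0.40 without Tg197 library c. At 8 weeks the region (chr6:52212401-52213500) held 92.4, 90.4 and 112 normalized reads in Tg197 and 179.8, 174 and 121 in WT cells. WT library c was the WT library nearest to the Tg197 cells, and the test was not passed (log2 change -0.67 ± 0.26, limma adjusted p = 0.0725) unless that library was left out, with -0.85 and a limma adjusted p of 0.00519. At 11 weeks the region (chr6:52211201-52212400) held 162, 187 and 193 normalized reads in Tg197 and 267, 263 and 238 in WT cells. The WT libraries were all higher, and it fell 1.42-fold (log2 change -0.50 ± 0.11, limma adjusted p = 0.00434).

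Downstream of its start site Hoxa13 had 2 more regions, neither of which passed the test. At 11 weeks a region at chr6:52208701-52209700 held 216, 251 and 233 normalized reads in Tg197 and 268, 270.4 and 262 in WT cells. The groups did not overlap, but the 1.14-fold difference missed the test (log2 change -0.20 ± 0.10, limma adjusted p = 0.0691), although its adjusted p in the authors' deposited table was 1.67e-08. Without Tg197 library b it passed, with a limma adjusted p of 0.0375. With TNF a region at chr6:52207501-52208500 held 165, 154 and 139 normalized reads in TNF-treated and 132, 318 and 149 in untreated WT cells. Only WT library b was above the treated libraries (log2 change -0.28 ± 0.32, limma adjusted p = 0.402). Without WT library b the log2 change was 0.11, the reverse direction, while the authors' deposited table gave an adjusted p of 0.000696 for this region. Leaving out WT library c gave a change of -0.43 with a limma adjusted p of 0.256.

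**Figure D2:**
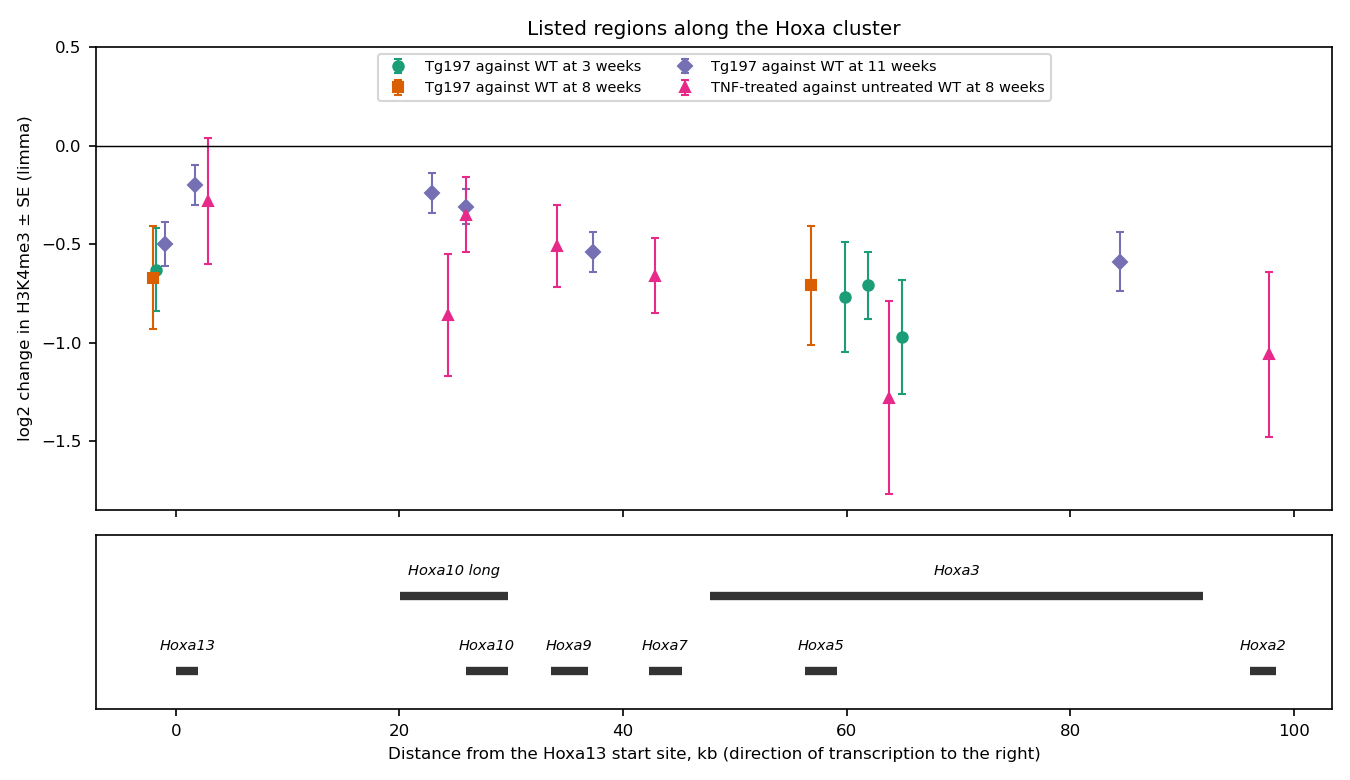
Limma log2 change with its SE (vertical axis) of 19 of the 20 listed Hoxa regions against the distance of their centres from the Hoxa13 start site in kb (horizontal axis, transcription to the right), with the transcripts of their genes below. With the authors' scaling all points lie below 0, from -0.20 at Hoxa13 to -1.28 within Hoxa3, and the regions of different tables mostly lie at different places.

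In the Hoxc cluster each of 4 genes had 1 region. Hoxc4, a gene of the neck and upper trunk, had a region at 3 weeks that held its start site, whose 9-CpG promoter is printed above (chr15:102864501-102865600). It held 85.1, 94.5 and 97.8 normalized reads in Tg197 and 127, 115 and 179 in WT cells. WT library c was the highest and no library overlapped the other group. Hoxc4 fell 1.52-fold (log2 change -0.58 ± 0.20, limma adjusted p = 0.0195), and it no longer passed without Tg197 library a or WT library c, with limma adjusted p of 0.0639 and 0.109. Hoxc9, a gene of the thorax, had a region of 3 weeks downstream of its start site (chr15:102808001-102809000). It held 55.6, 66.7 and 85.6 normalized reads in Tg197 and 132, 108 and 129 in WT cells. All WT libraries were higher, and Hoxc9 fell 1.78-fold (log2 change -0.84 ± 0.23, limma adjusted p = 0.0143).

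Hoxc6, a gene of the trunk and forelimb region, had a region at 8 weeks centred almost on its start site (chr15:102839501-102840500). It held 46.5, 56.6 and 64.2 normalized reads in Tg197 and 149, 139.8 and 73.2 in WT cells. WT libraries a and b were far above the Tg197 cells, and WT library c only slightly above. This 2.16-fold difference was the largest of the 6 Hox regions of that table (log2 change -1.05 ± 0.41, limma adjusted p = 0.0725), and without WT library c it was -1.38 with a limma adjusted p of 0.005. Hoxc13, which acts in hair and nails, had a region at 11 weeks that ended just past its start site (chr15:102750601-102751600). It held 62.1, 93.2 and 99.6 normalized reads in Tg197 and 130.3, 146 and 127 in WT cells. The Tg197 libraries differed among themselves but stayed below all WT libraries. Hoxc13 fell 1.58-fold, the largest change of the 8 Hox regions of that table (log2 change -0.68 ± 0.19, limma adjusted p = 0.00506).

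Evx2 was the gene with the most regions, 7 in all 4 tables. It had a stretch upstream of its start site, between it and Hoxd13, that was listed in 3 tables. At 3 weeks (chr2:74499101-74500200) it held 156, 172 and 167 normalized reads in Tg197 and 229, 229 and 217 in WT cells. The groups were separate, and it fell 1.36-fold (log2 change -0.45 ± 0.16, limma adjusted p = 0.0204). That call was lost without Tg197 library a or WT library a, b or c, with limma adjusted p of 0.0632, 0.0755, 0.0692 and 0.0646. At 8 weeks (chr2:74499501-74500600) it held 99.4, 97.1 and 99.0 normalized reads in Tg197 and 178, 154 and 118 in WT cells. The Tg197 libraries were nearly equal and all below WT, yet the test was not passed (log2 change -0.59 ± 0.25, limma adjusted p = 0.0753); without WT library c the limma adjusted p was 0.00806. With TNF (chr2:74499201-74500200) it held 134, 105 and 134 normalized reads in TNF-treated and 239, 189 and 163 in untreated WT cells. All treated libraries were lower, and it fell 1.59-fold (log2 change -0.65 ± 0.22, limma adjusted p = 0.046). That call was lost without treated library b or c or WT library a or b, with limma adjusted p of 0.135, 0.129, 0.138 and 0.12. The region passed with WT library c left out (limma adjusted p = 0.0147).

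Nearer to the Evx2 start site, a region of 11 weeks (chr2:74497901-74498900) held 137, 161 and 105 normalized reads in Tg197 and 192, 179.7 and 189 in WT cells. The WT libraries were close together, and it fell 1.39-fold (log2 change -0.50 ± 0.15, limma adjusted p = 0.00743), with a change of -0.33 without Tg197 library c. On the other side of the start site, a region of 3 weeks (chr2:74494401-74495600) held 188, 197 and 159 normalized reads in Tg197 and 313, 262 and 199.6 in WT cells. Its highest Tg197 library was just below its lowest WT library, and it fell 1.43-fold (log2 change -0.49 ± 0.20, limma adjusted p = 0.0297). That call was lost without Tg197 library a or WT library a, b or c, with limma adjusted p of 0.0646, 0.168, 0.0818 and 0.0646. With TNF, a region at chr2:74495901-74496900 held 170.0, 151 and 162 normalized reads in TNF-treated and 223, 204 and 208 in untreated WT cells. The groups were separate but the test was narrowly missed (log2 change -0.39 ± 0.15, limma adjusted p = 0.0505). The region passed with WT library c left out (limma adjusted p = 0.0276). Past the end of Evx2, a region of 3 weeks (chr2:74492401-74493400) held 104, 95.1 and 48.9 normalized reads in Tg197 and 139, 127 and 127 in WT cells. Tg197 library c was much lower than the other Tg197 libraries, and the region fell 1.58-fold (log2 change -0.73 ± 0.27, limma adjusted p = 0.0206). Its change, with all libraries the largest of the Hoxd cluster, was -0.39 without Tg197 library c (limma adjusted p = 0.0527), and it also did not pass without WT library a, b or c, with limma adjusted p of 0.0614, 0.0533 and 0.0657.

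Hoxd13, which like Hoxa13 acts in the digits, was listed only with TNF. Its upstream region (chr2:74503901-74505400) held 222, 192 and 202 normalized reads in TNF-treated and 305, 337 and 210.1 in untreated WT cells. WT library c lay among the treated libraries, and the test was not passed (log2 change -0.44 ± 0.19, limma adjusted p = 0.059) unless it was left out, with -0.64 and a limma adjusted p of 0.014. A region just past the end of the gene also differed by less than the test required (log2 change -0.38 ± 0.25, limma adjusted p = 0.16). WT library c again lay among the treated libraries. Leaving it out gave a change of -0.60 with a limma adjusted p of 0.0162. Hoxd9, a limb gene, had 1 region at 8 weeks, downstream of its start site (chr2:74536301-74537400). It held 85.5, 98.4 and 77.6 normalized reads in Tg197 and 184, 160.2 and 79.6 in WT cells. Here WT library c lay within the Tg197 range, and this was the only Hox region of that table whose groups overlapped (log2 change -0.61 ± 0.36, limma adjusted p = 0.134). Without that library the change was -0.98 with a limma adjusted p of 0.00401.

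The level of H3K4me3 in WT cells, as mean normalized reads per kb of region, ran from 116.0 to 215.0 over the Hox regions at 3 weeks, from 125.9 to 310.5 at 11 weeks and from 145.4 to 263.9 with TNF. The Hox medians over every class were 130.0, 137.8, 234.3 and 194.5 at 3, 8 and 11 weeks and with TNF, beside 124.3, 137.2, 114.1 and 170.2 for all listed regions. Within 3 kb of a TSS the Hox medians were 173.9, 137.8, 213.3 and 198.4, beside 142.5, 146.0, 139.7 and 178.5. The highest level at 11 weeks was in the Hoxa9 region and the lowest in the Hoxa3 region. With TNF the start site of Hoxa10 was highest and Hoxa3 again lowest.

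The 34 regions made up 29 separate places when regions sharing at least 1 base were joined. Of these, 26 were listed in 1 table, 1 in 2 tables (the Hoxa10 start site) and 2 in 3 tables (upstream of Evx2 and upstream of Hoxa13), and 0 in all 4. The tables were normalized separately, so levels were not compared between them. The 2 tables of 8 weeks share their WT libraries, and no Hox region had identical coordinates in both.

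Regions without a Hox name were searched for between the outermost listed Hox regions of each cluster and within 10 kb of them. In the Hoxb cluster only the 10 kb on either side of Mir196a-1 were searched, at 3 weeks. Parts of the clusters beyond these spans were not searched. A further 8 listed regions lay in these spans, and all had negative changes, as had 21343 of the 26201 listed regions of the 4 comparisons. In the Hoxb cluster, where no Hox gene was listed, 1 region at 3 weeks lay at Mir196a-1, a microRNA gene between Hoxb9 and Hoxb13 whose product targets Hox messenger RNAs. Its mature sequence is shown because it is the only noncoding gene of the clusters with a listed region, with the seed (bases 2 to 8) in capitals, from RefSeq on GRCm38.p6.
miR-196a-5p: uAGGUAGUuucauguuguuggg

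The Mir196a-1 region (chr11:96125801-96126900 on mm9) held 75.5, 81.2 and 85.5 normalized reads in Tg197 and 115.5, 120.7 and 140.5 in WT cells. The groups did not overlap, and it fell by 0.63 ± 0.19 on the log2 scale (limma adjusted p = 0.0148), but its change was 0.04 with libraries scaled to all listed regions. A second region of 3 weeks in that cluster, outside any gene (chr11:96121701-96122800), fell by 0.69 ± 0.19 (limma adjusted p = 0.0143), and its change was -0.02 with that scaling. In the Hoxa cluster, regions outside genes were listed at 3 weeks, at 11 weeks and with TNF. One with TNF spanned chr6:52202401-52205300 and held 416.0, 451.1 and 506.2 normalized reads in treated and 712.2, 748.5 and 518.4 in untreated cells. WT library c was almost level with the highest treated library, and the region fell by 0.51 ± 0.17 (limma adjusted p = 0.046), with a change of -0.01 when scaled to all listed regions. At 11 weeks a region overlapping that stretch (chr6:52204301-52205600) fell by 0.42 ± 0.12 (limma adjusted p = 0.00548), but it missed the threshold in the authors' deposited table (adjusted p = 0.0591), and its change was -0.07 when scaled to all listed regions. With that scaling, the remaining regions of the Hoxa cluster had changes of 0.15 and -0.27 at 3 weeks and -0.51 with TNF. The region of the Hoxc cluster at 11 weeks had a change of -0.53.

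The deposited enrichment values, a ratio over input scaled in an unstated way, did not always have the direction of the read numbers. In the authors' deposited tables, treated enrichment was above WT enrichment in 2 of 9 Hox regions at 3 weeks, 2 of 6 at 8 weeks, 0 of 8 at 11 weeks and 9 of 11 with TNF. At the Hoxa10 start site, the authors' deposited table of the TNF comparison gave 10.86 in treated and 7.36 in untreated cells, while its normalized reads were lower in treated cells. The median log2 ratio of the authors' deposited enrichment over the Hox regions was -0.07, -0.04, -0.43 and 0.56. The 2 measures of the authors' deposited tables differed by a nearly constant amount within a table, with medians of 0.48, 0.61, 0.07 and 1.04 on the log2 scale over all listed regions. In the Hox regions this offset ran from 0.40 to 0.63, 0.51 to 0.73, 0.05 to 0.09 and 0.94 to 1.19. Over all lower regions, enrichment was higher in treated cells in 3.41%, 10.8%, 0.199% and 53.0% of regions of the authors' deposited tables.

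**Figure D3:**
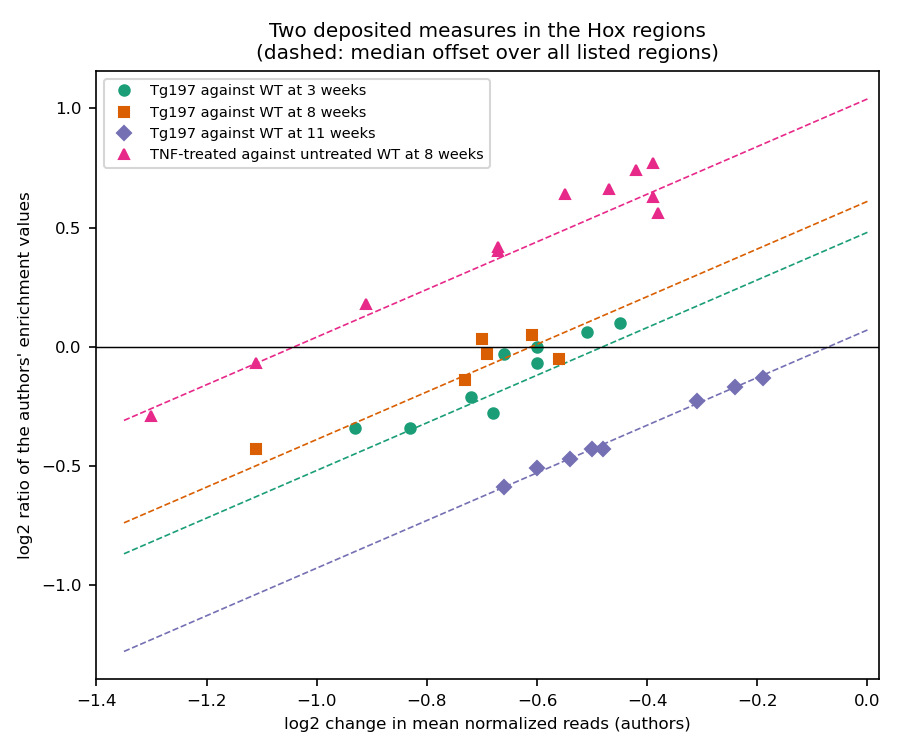
Log2 ratio of the authors' enrichment values (vertical axis) against the authors' log2 change in normalized reads (horizontal axis) for the 34 Hox regions, coloured by comparison, with dashed lines at the median offset of all listed regions of each table. Points follow their table's line, and 9 of the 11 TNF points lie above 0 on the vertical axis although all lie below 0 on the horizontal one.

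The choice of scaling moved all regions of a table together. Relative to the authors' scaling, the median log2 change of all listed regions shifted by 0.67, 0.71, 0.34 and 0.51 at 3, 8 and 11 weeks and with TNF when libraries were scaled to all listed regions, and by -0.33, -0.12, -0.15 and -0.10 when they were scaled to the listed regions within 1 kb of a TSS. A change turns positive where it is smaller than that shift. Scaling to all listed regions, which takes the median value of a library's listed regions as its scale, left 17 of the 34 log2 changes negative and turned 17 positive. Positive values were reached by 4 of 9, 5 of 6, 3 of 8 and 5 of 11 Hox regions, beside 35.6%, 20.6%, 2.61% and 22.9% of all regions that were negative before. Limma then called 0 Hox regions in any table, and 6.95%, 14.2%, 41.8% and 33.4% of all listed regions in either direction. At an unadjusted limma p under 0.05 there were 0, 0, 0 and 1 Hox regions, beside 12.6%, 40.9%, 55.8% and 53.8% of the tables. The Hox medians became -0.04, 0.07, -0.16 and -0.0003. Under the scaling within 1 kb all 34 changes were negative, as were 92.1%, 78.9%, 69.3% and 73.7% of all listed regions. Limma then called 9, 5, 8 and 8 Hox regions lower, beside 90.0%, 58.7%, 68.5% and 63.1% of the tables. The direction of every Hox result above is thus relative to the authors' scaling, and which scaling is closer to the amount of H3K4me3 was not tested.

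**Figure D4:**
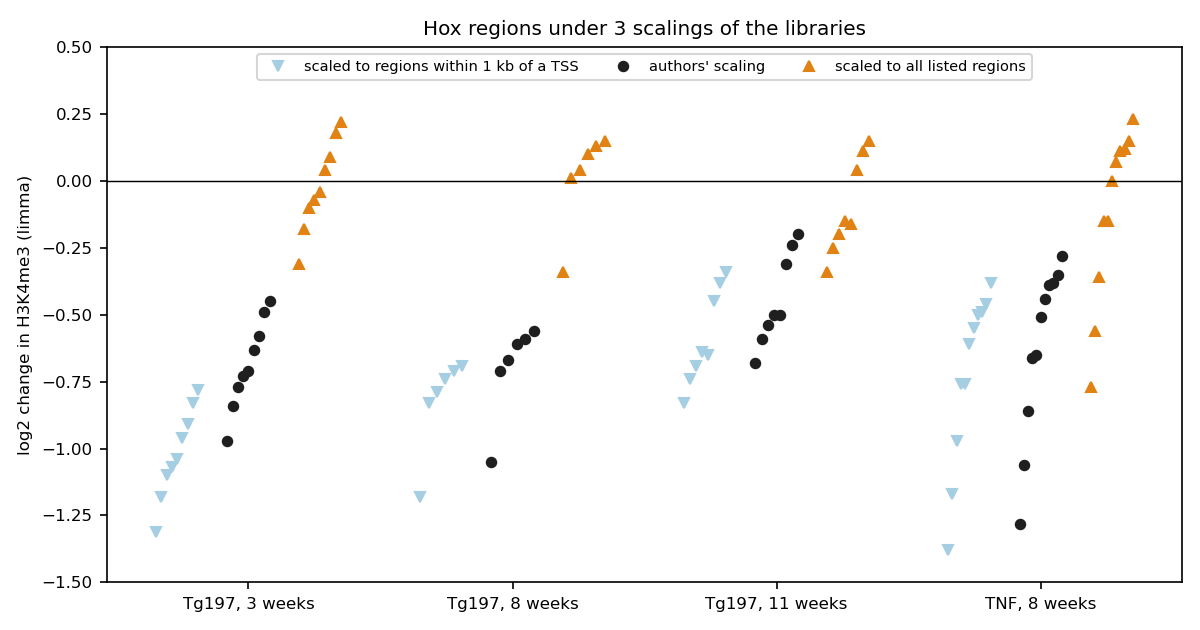
Limma log2 change (vertical axis) of each Hox region in the 4 comparisons (horizontal axis) under 3 scalings of the libraries, ordered by the authors' scaling within each set. Points scaled to all listed regions spread around 0, with 17 below and 17 above, while those under the other scalings all lie below 0.

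Hox proteins bind DNA together with cofactors of the Meis, Pbx and Pknox families, and 3, 1, 3 and 0 of 9 such genes had a listed region at 3, 8 and 11 weeks and with TNF. At 3 weeks Meis2 was the cofactor that rose, with 143.9, 173.9 and 183.3 normalized reads in Tg197 and 118.7, 93.9 and 117.1 in WT cells. The groups did not overlap in this region upstream of Meis2, and its direction was opposite to every Hox region (log2 change 0.60 ± 0.18, limma adjusted p = 0.0148). Among all listed regions within 3 kb of a TSS at 3 weeks, 39.7% were higher by the authors' adjusted p. Pknox1 was higher in the authors' deposited table but did not pass limma (0.36 ± 0.18, adjusted p = 0.0762). At 8 weeks Pknox2 was lower in the authors' deposited table, and its limma change was -0.59 ± 0.27 (adjusted p = 0.0843). Pbx4 and Pknox2 also fell at 11 weeks, Pbx4 by 1.10 ± 0.19 (limma adjusted p = 0.00434).

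Polycomb genes, whose products keep Hox genes silent, were listed for 9, 3, 2 and 4 of 16 members. At 3 weeks 8 had lower regions only, and each of these had a region that fell: Cbx2, Cbx7, Ezh1, Jarid2, Pcgf2, Phc2, Ring1 and Suz12. Of all listed regions at that age, 89.5% were lower and 88.9% fell. Cbx2, a reader of the Polycomb mark, fell from 282.1 ± 20.3 to 149.5 ± 26.5 normalized reads (SD, n = 3; log2 change -0.93 ± 0.18, limma adjusted p = 0.0143) at an upstream promoter region. With libraries scaled to all listed regions the change of Cbx2 was -0.26, while 4 of the 6 Ezh1 regions of 3 weeks had positive changes of 0.10 to 0.16. Eed, a core subunit, was higher in the authors' deposited table but not by limma (0.26 ± 0.30, adjusted p = 0.395). With TNF, Phc1 rose (0.58 ± 0.16, limma adjusted p = 0.046) and Phc2 fell in 2 regions. The list's medians were -0.74, -0.98, -0.50 and -1.08, beside whole-table medians of -0.70, -0.86, -0.60 and -0.58.

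Trithorax and demethylase genes, most of which act in the opposite direction to Polycomb, were listed for 4, 2, 2 and 3 of 14 names searched. These names include older and newer names of the same gene, so the genes are fewer. Kdm6b, a demethylase of the Polycomb mark, was lower at 3 weeks, at 8 weeks and with TNF in the authors' deposited tables, and its promoter region with TNF fell from 573.8 ± 17.8 to 369.4 ± 52.9 normalized reads (SD, n = 3; -0.64 ± 0.14, limma adjusted p = 0.046). Kdm6a, a related enzyme, rose with TNF at its promoter, from 189.8 ± 11.1 to 282.0 ± 47.6 normalized reads (SD, n = 3; 0.56 ± 0.16, limma adjusted p = 0.046). Mll1, a methyltransferase of Hox genes, had regions in both directions at 3 weeks: its promoter region rose (0.50 ± 0.17, limma adjusted p = 0.0177) and 3 regions in its gene body fell. Promoter regions that rose were thus listed in the tables of 3 weeks and TNF, in which every Hox region was lower. Among all listed regions within 3 kb of a TSS, 39.7% at 3 weeks and 38.9% with TNF were higher by the authors' adjusted p.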

How the data were processed

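H3K4me3 ChIP-seq regions of mouse synovial fibroblasts were taken from 4 deposited tables on mm9. The submitters' processing notes name mm9, BWA, TopHat, TopHat2, Cufflinks and Cuffdiff without roles, and which program called the regions was not given in the sources used here. Regions have 3 normalized counts per group in 1 cell, per the file headers, and the deposited averages are the signal. The deposited enrichment columns are a ratio over input. Fold changes by the authors are in log2 units, and the deposited p-value columns give the authors' p and adjusted p. The table headers say treatment and control. WT was taken as control because 162 of 162 control values in 54 regions shared by both tables of 8 weeks came to equal reads. The other tables were read the same way.

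Each value was a whole multiple of 1 read per library (100.0% within 0.02 normalized reads), which gave the depths. limma 3.58.1 in R 4.3.3, with a trend in the variance, was run on log2(normalized count + 0.5) over all listed regions of each table, and checked on simulated data. The deposited TSS column is the lower end of the transcript, so start sites on the minus strand were taken from the upper end. No table covers all samples, so tests stay within a table. Alternatives were other pseudocounts (1 and 5), scalings, a mean of at least 50 normalized counts, voom, limma without trend, and leaving out each library. The authors' enrichment columns were added as an alternative after seeing the data. The members and gene lists were chosen with earlier results of these data known. Named were all Hox regions within 3 kb of a TSS, the largest change per cluster, and listed genes of the related lists past the authors' adjusted p of 0.05. Some genes that met this rule are not reported here by name, though they remain in the counts.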

Additional observations from a re-analysis of the deposited data

How the results depend on the processing

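Pseudocount 1 and a mean of at least 50 normalized counts changed no call among the 34 Hox regions. The number that fell (9, 0, 7 and 3 at 3, 8 and 11 weeks and with TNF) became 0, 0, 0 and 0 with libraries scaled to all listed regions, and 5 at 8 weeks and 8 with TNF when libraries were scaled by regions at most 1 kb from a TSS. With TNF it was 5 with a pseudocount of 5, 5 with voom and 0 without the trend. Restricted to regions within 3 kb of a TSS it was 5 at 3 weeks and 4 at 11 weeks, and the number lower by the authors' adjusted p was 5 at 3 weeks and 5 at 11 weeks, by construction, since fewer regions were counted. With TNF 7 were lower at an authors' adjusted p under 0.001. Leaving out 1 library gave 0 to 9 at 3 weeks (0 without WT library c, 4 without WT library b), 0 to 6 at 8 weeks (6 without WT library c) and 0 to 9 with TNF (9 without WT library c, 5 without treated library a, 0 without any of the other 4). The median log2 change became -0.04, 0.07, -0.16 and -0.0003 with scaling to all listed regions, -1.04 at 3 weeks and -0.65 at 11 weeks with the latter scaling within 1 kb, and -0.07, -0.04 and 0.56 at 3 and 8 weeks and with TNF by the enrichment columns. Scaled to all listed regions, single regions reversed at 3 weeks to 0.09 (Hoxc4), 0.18 and 0.22 (Evx2) and 0.04 (Hoxa13), and at 8 weeks to 0.13 (Evx2), 0.10 (Hoxd9), 0.005 (Hoxa5) and 0.04 (Hoxa13). At 11 weeks they reversed to 0.04 and 0.11 (Hoxa10) and 0.15 (Hoxa13), and with TNF to 0.11 (Evx2), 0.07 and 0.12 (Hoxd13), 0.15 (Hoxa10) and 0.23 (Hoxa13). Hoxa13 with TNF ranged from -0.52 to 0.11 when 1 library was left out. The cause of these shifts was not tested. No paired analysis was possible because the 3 values of a group carry no replicate numbers. Regions with few reads are limited by counting error, and genes without a listed region have no value.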

Other observations

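Genes that flank the clusters without being Hox genes also had listed regions. Skap2 and Snx10, which lie beside the Hoxa cluster, had lower regions at 3 and 11 weeks, and Atf2, on the chromosome of the Hoxd cluster, had them at 3 weeks and with TNF. At 3 weeks all 5 listed Skap2 regions fell, with log2 changes from -0.94 to -0.67 (limma adjusted p of 0.0143 to 0.0175). Scaled to all listed regions, these changes ran from -0.27 to -0.0. Cdx1, a related homeobox gene in the same list, had a lower region at 11 weeks. The 10 names of this list include Lnp and Lunapark, which stand for the same gene. Of these names, 3, 0, 3 and 2 were listed at 3, 8 and 11 weeks and with TNF. All listed genes were lower, and 3, 0, 3 and 0 fell by limma. Of all listed regions, 89.5%, 77.2%, 67.0% and 72.3% were lower, and 88.9%, 0.0%, 67.7% and 42.6% fell. The list's median log2 changes of -0.77, -0.67 and -0.82 at 3 and 11 weeks and with TNF stand beside whole-table medians of -0.70, -0.60 and -0.58.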
